A study of Mus musculus with 35 samples.

Results

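The clustered protocadherins are the genes of the alpha, beta and gamma protocadherin clusters. Here they were all gene symbols in the deposited transcript tables that begin with Pcdha, Pcdhb or Pcdhg and go on with a number or the letters and number of a variable exon, which gave 58 of 30723 symbols. The rule used names alone and no measured value. The alpha cluster held 15 of them, the beta cluster 21 and the gamma cluster 22. In the mm10 coordinates of the tables all 3 clusters lie on chromosome 18. The alpha cluster spans positions 36930285 to 37187660, the beta cluster 37264998 to 37521419 and the gamma cluster 37661945 to 37841872. Among the alpha members is Pcdha4-g, whose only transcript starts in the alpha cluster and ends with the gamma cluster, and the alpha extent leaves it out.

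Protocadherins are adhesion molecules of the cadherin family. In the alpha and gamma clusters each variable exon has a promoter of its own and is spliced to a set of constant exons that all members of the cluster share, so that the variable exon encodes the outer part of the protein and the constant exons the common cytoplasmic tail. Beta genes have no constant exons. A neuron is known to use only a few of the variable exons, largely at random, while the C-type members at the end of the alpha and gamma clusters are used more evenly, and the mixture of proteins on its surface lets a neuron tell its own branches from those of others. The promoters are known to be governed by the insulator protein CTCF, by cohesin and by DNA methylation.

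Polyadenylated RNA was sequenced from tissues of CD1 mouse embryos of Wild Type genotype at embryonic day 11.5. Limb, dorsal brain (dB), ventral brain (vB) and, in the face, the frontonasal (FNP) and mandibular (MNP) prominences gave 6 libraries each, and the maxillary prominence (MXP) gave 5, which makes 35. Each library was made from tissue pooled over several embryos, and the sample labels call the brain pieces dorsal and ventral neural tube. Below, dB and vB together are called neural tissue and the prominences together facial tissue, and a value for either is the mean of its tissue means.

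The tables give fragments per kilobase of transcript scaled to the mapped fragments of the library (FPKM), which corrects for length, so that levels can be compared between genes. Read counts were not at hand, but from the coverage listed beside each transcript 1 FPKM went with 36.0 to 73.4 reads of 75 bases per kilobase. Of the 15 alpha members 11 had a mean under 0.1 FPKM and so rested on few reads in a library. Between neural, facial and limb tissue, marker genes moved with the label. Of the 11 neuronal markers tested, 10 were called higher in neural than in facial tissue, as were 8 of 8 markers of neural progenitors, and 7 of 8 mesenchymal markers and 8 of 8 of surface epithelium were called lower. The brain pieces differed as well: 5 of 8 mesenchymal markers were called higher in dB than in vB and 0 lower, with a median log2 difference of 1.72. The summed markers of limb identity were 143 to 436 FPKM in the limb libraries and at most 5.87 FPKM in any other. FNP replicates 4 and 5 held 112 and 61.5 FPKM of fore- and midbrain markers in sum, more than the other FNP libraries. Libraries numbered 4 had the lowest beta cluster sum in 5 of 5 tissues. Shares of long transcripts were taken of the FPKM in transcripts of at least 200 bases. In vB replicate 4 transcripts of at least 4000 bases held 4.48% of it, the lowest share of all libraries. Libraries numbered 2 had the highest sums of all 3 clusters in 5 of 6 tissues and also the highest share of FPKM in such long transcripts in 5 of 6. The exception was limb. In the other tissues the libraries numbered 2 carry the run number 1575, while limb replicate 2 carries 1629 and no limb library carries 1575. Libraries numbered 1 held 19.1% to 39.2% of their FPKM in transcripts under 200 bases, against 0.653% to 10.3% in the others. Transcripts of members are 2319 to 7768 bases long. What part the shares of long and of short transcripts had in the members' levels was not tested. Values without the libraries numbered 4 are given where they matter.

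Every tissue expressed clustered protocadherins, and most of the signal came from the gamma cluster. Gamma members summed to 77.7 ± 8.3 FPKM in FNP (SD, n = 6), 76.6 ± 14 in MXP (n = 5) and 70.0 ± 13 in MNP (n = 6), against 60.0 ± 18 in limb, 52.3 ± 20 in vB and 48.9 ± 14 in dB (n = 6 each). Beta members summed to between 6.87 FPKM in dB and 9.63 FPKM in vB. Alpha members summed to between 0.607 FPKM in limb and 3.91 FPKM in vB. The gamma cluster thus held 81.3% of the members' FPKM in neural tissue, 86.9% in facial tissue and 87.6% in limb.

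Single members were mostly low. Over all libraries 4 members had a mean over 2 FPKM, namely Pcdhgc3 (35.9 FPKM), Pcdhgb7 (3.66), Pcdhgb6 (2.66) and Pcdhga11 (2.57). The other extreme was wide: 29 members stayed under 1 FPKM in every library. The median member had a mean of 0.0725 FPKM in the alpha cluster, 0.339 in the beta cluster and 1.22 in the gamma cluster. No member was listed at 0 in every library. Pcdha1, at 0 in 28 of 35 libraries, and Pcdhb1, at 0 in 26 and with a highest value of 0.105 FPKM in FNP, came nearest, and both are named here after their values were seen. Members kept much the same order in every tissue: between pairs of tissues Spearman's rho of the 58 means ranged from 0.924 to 0.988 over 15 pairs, which describes members that share constant exons and libraries and carries no test.

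**Figure D1:**
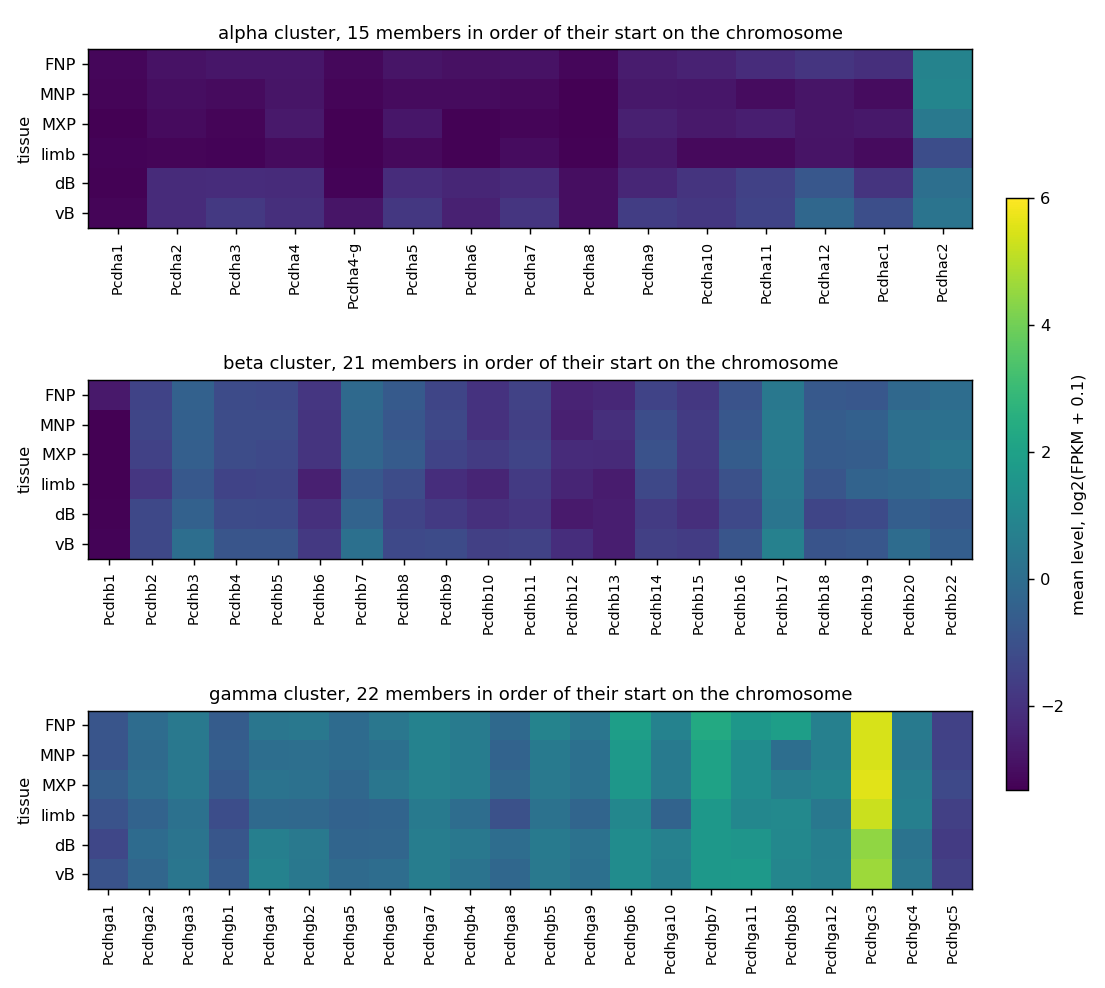
Mean level of each of the 58 members in each tissue as log2(FPKM + 0.1), with 1 panel per cluster, members from left to right in order of their start on the chromosome and tissues as rows. Pcdhgc3 stands out in the gamma panel in all 6 tissues, and Pcdha2 to Pcdha12 and Pcdhac1 are brighter in the dB and vB rows than in the others.

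Position within a cluster went with level. Across the 12 numbered alpha members, rho between place in the cluster and mean level was 0.713, and across the 18 gamma A and gamma B members without Pcdhgb8 it was 0.748, the members nearer to the constant exons being higher. In single tissues the gamma value lay between 0.591 in limb and 0.754 in MNP, and the alpha value between 0.364 in MNP and 0.629 in vB. For the 21 beta members rho was 0.431. These are descriptions across members, which share exons and libraries, and Cufflinks divides the reads of shared exons between members by estimate.

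Differences between tissues were tested over all genes. The main fit was limma on log2(FPKM + 1) over the 13934 genes whose mean reached 1 FPKM in any tissue, and a gene was called at a Benjamini-Hochberg adjusted p under 0.05 with a fold of at least 2. Of the 58 members 19 passed that filter (1 alpha, 2 beta and 16 gamma) and 39 did not. Because that filter lets a low gene in through the tissue in which it is high, and because adding 1 FPKM compresses low genes, a second fit used log2(FPKM + 0.1) over the 16777 genes whose mean over all libraries reached 0.1 FPKM. It held 44 members, 4 alpha, 18 beta and all 22 gamma. A low gene can still reach this mean through the tissues in which it is high. The main fit called Pcdhac2 and Pcdhgc3 between at least 1 pair of tissues, 2 of 19 members against 21.3% of all genes tested. The second called 8 of 44 against 31.2%. In both fits the share of members called was below that of all genes.

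Pcdhgc3, a C-type member of the gamma cluster and the clustered protocadherin with the highest level in 34 of 35 libraries, was lower in neural than in facial tissue. Its FPKM in MXP was 42.1, 57.9, 38.6, 45.7 and 54.4 in replicates 1, 2, 3, 5 and 6. In FNP it ran from 33.9 over a median of 43.5 to 54.1, and in MNP from 36.7 over 40.2 to 53.5. In dB it ran from 11.2 over 22.1 to 30.8. In vB it ran from 4.52 over 27.3 to 35.6, with the lowest value in replicate 4. Thus 11 of the 12 neural libraries lay below all 17 facial libraries. In limb it ran from 18.3 over 40.3 to 48.1, and 2 of the 12 neural libraries lay below all 6 limb libraries. In order, the means were 47.7 ± 8.2 in MXP, 43.5 ± 6.8 in FNP, 42.7 ± 6.8 in MNP, 37.8 ± 11 in limb, 24.5 ± 11 in vB and 21.6 ± 6.4 in dB. The ranges of neighbours in this order overlapped at every step.

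The log2 difference of Pcdhgc3 between neural and facial tissue was -1.05 (SE 0.19), with an adjusted p of 2.07e-05 in limma, and mean FPKM was 1.94 times higher in facial tissue. It was the only member called in this comparison, 1 of 19, against 4.64% of all genes called lower and 6.64% called higher. The fold lay close to the threshold of 2 and rested on vB replicate 4: without that library the difference was -0.85 (adjusted p = 1.13e-06), and without all libraries numbered 4 it was -0.80 (adjusted p = 1.66e-08), so that the change passed at the adjusted p but no longer at the fold. With the library number as a block it was -0.99 (adjusted p = 2.68e-07), also just short of the fold. Against limb the neural level was lower by the adjusted p alone, with a difference of -0.76 (SE 0.25, adjusted p = 0.014). The difference between facial tissue and limb was 0.28 (adjusted p = 0.497), and that between dB and vB -0.02 (SE 0.29, adjusted p = 0.997).

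The share of Pcdhgc3 within the clusters separated neural from other tissue as well. It took 48.9% ± 3.6 of the summed FPKM of all members in FNP, 52.5% ± 3.4 in MNP, 54.5% ± 2.7 in MXP and 55.2% ± 3.6 in limb, against 36.9% ± 3.9 in dB and 35.3% ± 9.6 in vB. The shares of 11 of 12 neural libraries lay below those of all facial libraries, and those of 12 of 12 below those of all limb libraries. Pcdhgb7, the second member by mean level, was also lower under the fold: the difference between neural and facial tissue was -0.43 (SE 0.14, adjusted p = 0.0114). Whether the change of Pcdhgc3 differed from that of Pcdhgb7 was not tested. In a bulk library fewer cells that use a gene and less of its RNA per cell cannot be told apart, here and in every comparison that follows. The summed mesenchymal markers ranged from 637 to 1345 FPKM in facial libraries, 484 to 769 in limb and 6.78 to 395 in neural tissue. Between these categories they moved with Pcdhgc3 in direction. Within the brain the markers had the higher mean in dB, while Pcdhgc3 did not differ between dB and vB by the test, so no direction can be compared there. The part of the markers in the level of Pcdhgc3 was not tested.

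**Figure D2:**
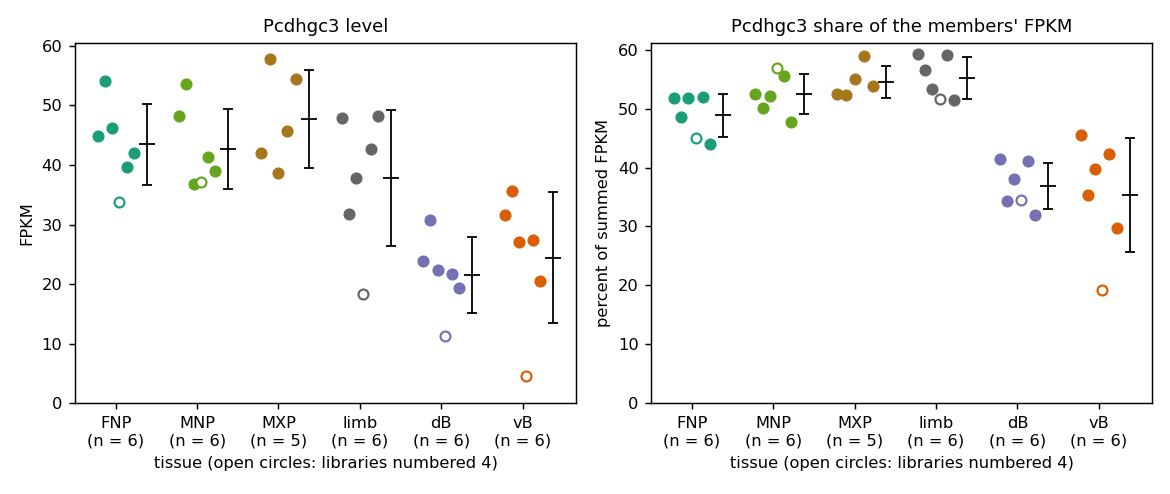
Pcdhgc3 in every library, as FPKM on the left and as percent of the summed FPKM of all 58 members on the right, by tissue. Points are libraries, open circles those numbered 4, and bars mean ± SD. Most points of dB and vB lie below those of FNP, MNP and MXP in both panels, with vB replicate 4 at 4.52 FPKM and 19.2%.

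The other C-type members of the gamma cluster were far lower and did not pass the test in any of the comparisons between tissue categories. Pcdhgc4 had means between 1.07 ± 0.58 FPKM in dB and 1.51 ± 0.46 in limb, and the neural minus facial difference was -0.17 (SE 0.12, adjusted p = 0.26). Pcdhgc5 had means between 0.208 ± 0.11 FPKM in dB and 0.321 ± 0.074 in MXP. It was tested only in the fit with 0.1 added, where its neural minus facial difference was -0.31 (SE 0.22, adjusted p = 0.254). The libraries of all tissues overlapped for both genes.

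The numbered alpha members, Pcdha1 to Pcdha12, were higher in neural tissue. Their sum in MXP was 0.41, 0.49, 0.324, 0.237 and 0.511 FPKM in replicates 1, 2, 3, 5 and 6. It ran from 0.371 over a median of 0.615 to 1.24 FPKM in FNP, from 0.147 over 0.301 to 0.575 in MNP and from 0.112 over 0.199 to 0.417 in limb. In dB it ran from 0.971 over 1.39 to 3.40 and in vB from 1.24 over 2.14 to 3.77. The vB libraries lay in separate ranges: replicates 2, 3 and 6, with sums of 3.77, 2.64 and 3.69, had 1235 to 1665 FPKM of neuronal and 6.78 to 52.7 FPKM of mesenchymal markers in sum, while replicates 1, 4 and 5, with sums of 1.34, 1.24 and 1.63, had 680 to 805 and 184 to 354 FPKM. The part of these markers in the sums was not tested. All 12 neural libraries lay above all limb libraries, and 9 of 12 above all facial libraries. As a share of all members' FPKM, 12 of 12 neural libraries, at 1.83% to 5.36%, lay above all facial libraries, at 0.198% to 1.12%. The neural mean was 4.29 times the facial mean and 9.36 times the limb mean, and 4.50 and 10.4 times without the libraries numbered 4. No test was made of a sum over chosen members.

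The direction was shared by single alpha members: 11 of the 12 had a higher mean in neural than in facial tissue. This was so for 48.6% of all symbols above 0 in some library and 49.6% of those with a mean of at least 0.1 FPKM, which only 2 of the 12 reached. Of the 12, 11 had their highest mean in dB or vB. The exception, Pcdha1, had a highest value of 0.048 FPKM in any library. These genes are near the lower end of what the libraries show, the highest single value being 1.18 FPKM, so the order among them is uncertain. Between pairs of tissues rho of the 15 alpha means was 0.596 to 0.939, lower than for the whole set of members.

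In the fit with 0.1 added, 3 members were called higher in neural than in facial tissue, against 9.8% of all genes, and 1 lower, against 7.41%. All 3 were alpha members, of which only 4 of 15 were in this fit. Their levels outside the brain were low, and they reached a mean of 0.1 FPKM through the neural libraries. Their being tested was thus tied to their being high there, so the count of 3 is no separate support for the direction. Pcdha12 had a mean of 0.473 ± 0.24 FPKM in dB and 0.774 ± 0.29 in vB, against 0.172 ± 0.09 in FNP, 0.0436 ± 0.042 in MNP, 0.0449 ± 0.038 in MXP and 0.0418 ± 0.037 in limb. Of the 12 neural libraries 10 lay above all 17 facial ones, and the log2 difference was 1.96 (SE 0.17, adjusted p = 1.29e-11). Pcdha11 had a difference of 1.13 (SE 0.16, adjusted p = 2.84e-07), with means of 0.253 FPKM in dB and 0.271 in vB and at most 0.130 elsewhere. Pcdhac1, the first C-type member of the cluster, had a difference of 1.07 (SE 0.20, adjusted p = 2.41e-05). Its level ran from 0.102 over 0.373 to 0.634 FPKM in vB and from 0.0672 over 0.163 to 0.307 in dB, and 4 of the 12 neural libraries lay above every facial one. All 3 were also called without the libraries numbered 4 and in replicates 1 to 3 alone. In replicates 4 to 6 alone Pcdha11 and Pcdha12 were called, while Pcdhac1 did not reach the filter and was not tested.

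Against limb the same fit called 5 of 44 members higher in neural tissue, against 12.2% of all genes, and 0 lower, against 6.79%. Pcdha12 led with a difference of 2.28 (SE 0.23, adjusted p = 3.71e-10). It was followed by Pcdha11 (1.61), Pcdhac1 (1.48), Pcdhac2 (1.40) and, from the gamma cluster, Pcdhga10 (1.07, SE 0.24, adjusted p = 5.14e-04). Pcdha12, Pcdha11 and Pcdhac1 entered the fit through the neural libraries, as above. In that limma fit on replicates 4 to 6 alone Pcdhac2 had 1.30 (adjusted p = 0.217) and Pcdhga10 0.94 (adjusted p = 0.0951), and Pcdhac1 was not tested. In the main fit over all libraries 0 of 19 members passed the fold for neural tissue against limb, against 8.05% higher and 4.36% lower. Of the 19 members 7 had an unadjusted p under 0.05, against 50.6% of all genes. At any fold 4 were higher and 2 lower, against 24.3% and 20.6%. Neural libraries lay above limb libraries without overlap for Pcdha11 and Pcdha12, 2 of the 44 members with a mean of at least 0.1 FPKM, against 9.24% of such genes, and also for Pcdha10, whose mean was lower. No member lay below limb in this way, against 5.7% of genes, and none separated neural from facial tissue, against 5.02% higher and 3.82% lower. None separated facial tissue from limb either, against 1.38% and 1.1%.

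**Figure D3:**
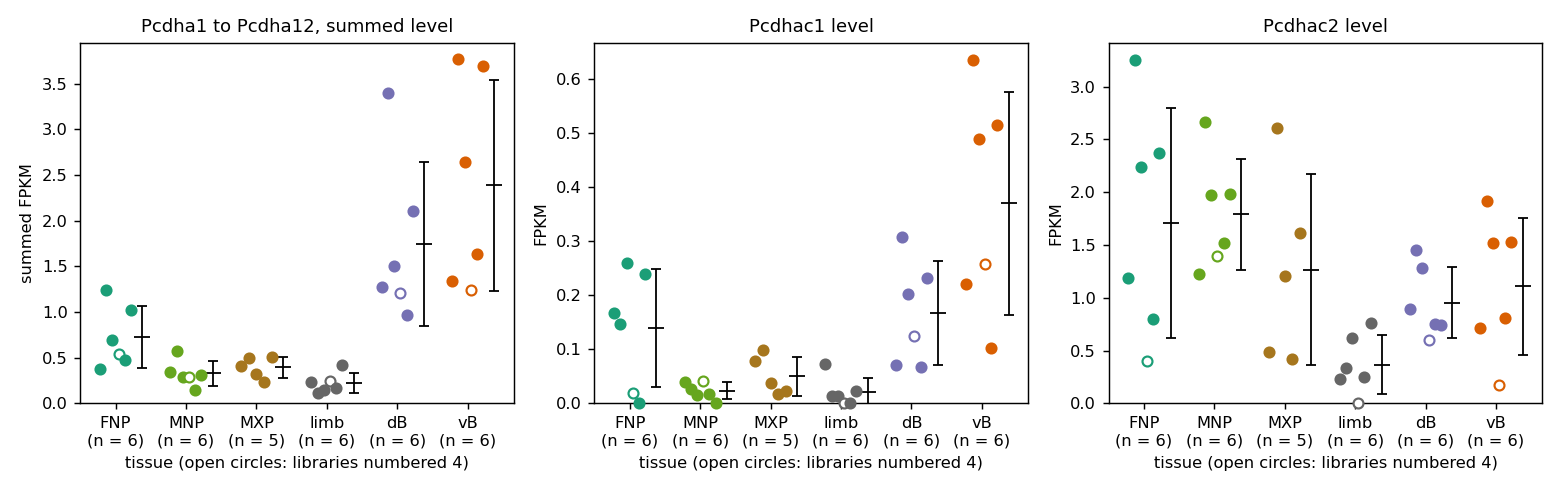
Levels in FPKM by library and tissue for the sum of Pcdha1 to Pcdha12, for Pcdhac1 and for Pcdhac2. Points are libraries, open circles those numbered 4, and bars mean ± SD. The sum and Pcdhac1 reach their highest values in vB, at 3.77 and 0.634 FPKM, while Pcdhac2 reaches its highest, 3.25 FPKM, in FNP and stays at or under 0.76 FPKM in limb.

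Pcdhac2, the second C-type member of the alpha cluster and its highest member, had another pattern. Its level in MXP was 0.482, 2.61, 1.2, 0.418 and 1.61 FPKM in replicates 1, 2, 3, 5 and 6. It ran from 0.402 over 1.71 to 3.25 in FNP and from 1.23 over 1.74 to 2.66 in MNP. In neural tissue it ran from 0.602 over 0.824 to 1.45 in dB and from 0.174 over 1.16 to 1.91 in vB, within the facial range but for 1 library below it. In limb it ran from 0, in replicate 4, over 0.292 to 0.76 FPKM, and 14 of the 17 facial libraries lay above all limb libraries.

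In the main fit Pcdhac2 was higher in facial tissue than in limb by 0.87 on the log2 scale (SE 0.20, adjusted p = 0.002) and higher in neural tissue than in limb by 0.56 (SE 0.21, adjusted p = 0.0291), both short of the fold. The difference between neural tissue and limb was 0.34 (adjusted p = 0.157) with quantile normalization and 0.40 (adjusted p = 0.399) in replicates 4 to 6 alone. The fit with 0.1 added gave 1.93 (SE 0.41, adjusted p = 7.47e-04) for facial tissue against limb, and 1.93 (adjusted p = 0.182) in replicates 4 to 6 alone. There it was the only member called, 1 of 44, against 4.07% of all genes called higher and 1.91% called lower. The main fit called 0 of 19 members between facial tissue and limb, against 1.51% and 1.11%, and 7 of 19 had an unadjusted p under 0.05, against 25.0% of all genes. At any fold 3 were higher in facial tissue and 0 lower, against 8.55% and 5.08%. Between neural and facial tissue its difference was -0.31 (SE 0.16, adjusted p = 0.0928). C-type members held 84.5% ± 4.7 of the alpha FPKM in MNP, 72.5% ± 11 in MXP and 67.8% ± 13 in FNP, against 40.2% ± 7 in dB and 36.7% ± 6.1 in vB, and 10 of 12 neural libraries lay below all facial ones. In limb 5 of 6 libraries, at 56.7% to 80.8%, lay above all neural libraries, and replicate 4, where Pcdhac2 was listed at 0, was at 0%. Between neural and facial tissue the ratio of mean FPKM was 0.783 for the C-type sum and 4.29 for the numbered members.

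The order of the sum of Pcdha1 to Pcdha12 over tissues, from vB over dB, FNP, MXP and MNP to limb, was also that of the summed neuronal markers. These markers had means of 1091 FPKM in vB, 827 in dB, 161 in FNP, 119 in MXP, 54.2 in MNP and 36.5 in limb. The summed markers of neural progenitors had the same order, from 853 FPKM in vB to 44.4 in limb. Neuronal markers were above 0 in every tissue, and their part in the alpha differences was not tested. Within the face, FNP had the highest sum of Pcdha1 to Pcdha12 and the highest sums of both marker lists.

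**Figure D4:**
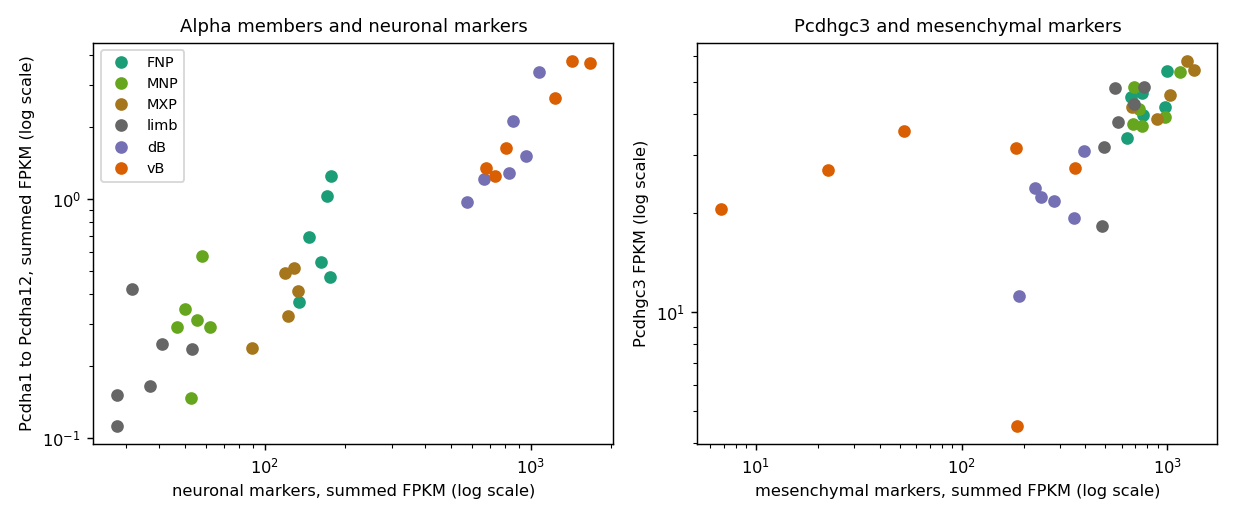
Each point is a library, coloured by tissue, on log axes in FPKM. The left panel sets the sum of Pcdha1 to Pcdha12 against summed neuronal markers and the right panel Pcdhgc3 against summed mesenchymal markers. On the left neural libraries lie at the upper right and limb libraries at the lower left, and on the right vB replicate 4 lies lowest, at 4.52 FPKM of Pcdhgc3.

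Beta members, which have no constant exons and whose reads belong to single genes except where their sequences are alike, had sums that overlapped between all tissues. Every beta member other than Pcdhb1 was above 0 in 34 of 35 libraries. Their sum had means of 8.80 ± 3.9 FPKM in FNP, 9.52 ± 3.2 in MNP, 9.60 ± 2.9 in MXP, 7.62 ± 2 in limb, 6.87 ± 3.2 in dB and 9.63 ± 4.1 in vB. The spread within a tissue was larger than the differences between them, with FNP running from 3.64 in replicate 4 to 14.3 in replicate 2. Between dB and vB libraries of the same number, however, the beta sum was lower in dB in 6 of 6, by 0.656 to 6.56 FPKM. All 21 beta members had a lower mean in dB, against 44.0% of the symbols with a mean of at least 0.1 FPKM. By the test few of these differences stood, as given under the comparisons within the brain. Mesenchymal markers were higher in dB than in vB, and their part in the beta levels was not tested.

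Of 18 beta members in the fit with 0.1 added, 0 were called between neural and facial tissue at the fold, and 4 were lower and 0 higher by the adjusted p alone, against 25.7% and 26% of all genes. Pcdhb17, the highest beta member, ranged from 0.585 to 2.52 FPKM over all libraries, with a difference of 0.02 (SE 0.11, adjusted p = 0.92) in the main fit. Pcdhb22, the second, did differ. It had means of 0.513 ± 0.18 FPKM in dB and 0.597 ± 0.21 in vB, against 0.918 ± 0.38 in FNP, 0.999 ± 0.32 in MNP, 1.14 ± 0.36 in MXP and 0.881 ± 0.22 in limb. Its neural minus facial difference was -0.76 (SE 0.18, adjusted p = 4.61e-04) with 0.1 added. In the main fit, whose filter it passed through MXP alone, it was -0.37 (SE 0.09). Only 3 of 12 neural libraries lay below all facial ones. Pcdhb20, Pcdhb7 and Pcdhb3, the next by level, had differences of -0.25, 0.05 and 0.29 in the fit with 0.1 added, none past the test.

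Gamma A and gamma B members, whose variable exons alternate along the cluster, had their lowest sums in limb. Gamma A members summed to 10.5 ± 3.8 FPKM in limb, and elsewhere to between 13.6 ± 3 in MNP and 15.6 ± 3.1 in FNP, with 14.6 ± 4.3 in dB and 15.3 ± 6.4 in vB. Gamma B members without Pcdhgb8 summed to 7.99 ± 3.2 FPKM in limb, 9.35 ± 4.2 in vB, 9.53 ± 3.4 in dB, 11.2 ± 3 in MXP, 11.4 ± 2.8 in MNP and 13.4 ± 2.4 in FNP. Libraries of the tissues overlapped in both sums. Their ratio overlapped less: gamma A per gamma B was 1.42 to 1.80 in neural libraries and 1.07 to 1.41 in facial libraries, with no overlap, and 1.13 to 1.61 in limb. This ratio was chosen after the values were seen and was not tested.

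The main fit at any fold found 1 member higher in neural tissue than in the face and 4 lower, against 26.8% of all genes in either direction. Beside Pcdhgc3, Pcdhgb7 and Pcdhb22 the lower ones included Pcdhgb6, with a difference of -0.44 (SE 0.15, adjusted p = 0.0126). The higher one was Pcdhga4, with 0.31 (SE 0.09, adjusted p = 0.00628), which had means of 1.52 ± 0.54 FPKM in dB and 1.66 ± 0.67 in vB and at most 1.16 elsewhere. Pcdhga4 and Pcdhga10 are named here after their values were seen. Pcdhga11, the highest of the gamma A members, had means between 1.90 in limb and 3.24 in vB and a difference of 0.16 (SE 0.14, adjusted p = 0.359).

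Limb was the low end for these genes. It was also the only tissue without a library of run 1575, and the part of the run was not tested. Of the 19 gamma A and B members 16 had their lowest mean in limb, against 21.7% of symbols with a mean of at least 0.1 FPKM. Of all 58 members 52 had a higher mean in facial tissue than in limb, against 56.8% of such symbols and 57.3% of those above 0 in some library. By the test few of these differences stood: Pcdhga10 was higher in facial tissue than in limb by 0.53 (SE 0.13, adjusted p = 0.00487) and Pcdhgb6 by 0.59 (SE 0.19, adjusted p = 0.0295), both under the fold. Pcdhga10 ran from 0.318 over 0.719 to 0.948 FPKM in limb, and 15 of 17 facial and 11 of 12 neural libraries lay above all of these.

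The summed symbol Pcdhgb8 did not hold a steady level in any tissue. It ran from 0.152 to 14.2 FPKM in FNP, from 0.0874 to 6.36 in dB and from 0.277 to 6.09 in vB. It has 2 transcripts in the tables, and the one that starts at 37824359 and ends with the cluster at 37841872 held most of these peaks, with 13.9 FPKM in FNP replicate 4, 6.2 in dB replicate 6 and 5.99 in vB replicate 4. The other transcript, which starts at 37761801 among the gamma A and gamma B members, stayed between 0.0721 and 0.408 FPKM in all libraries. The symbol thus passed the main filter through the first transcript alone. The first one starts after the start of every other gamma member, so it leaves out the place where the other Pcdhgb8 transcript starts. Its level is therefore no measure of the use of that start. It takes in the end of the cluster, where the constant exons lie. How reads were divided between it and the other gamma members is an estimate of Cufflinks. The neural minus facial difference of the summed symbol in the main fit was 0.07 (SE 0.32, adjusted p = 0.871).

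**Figure D5:**
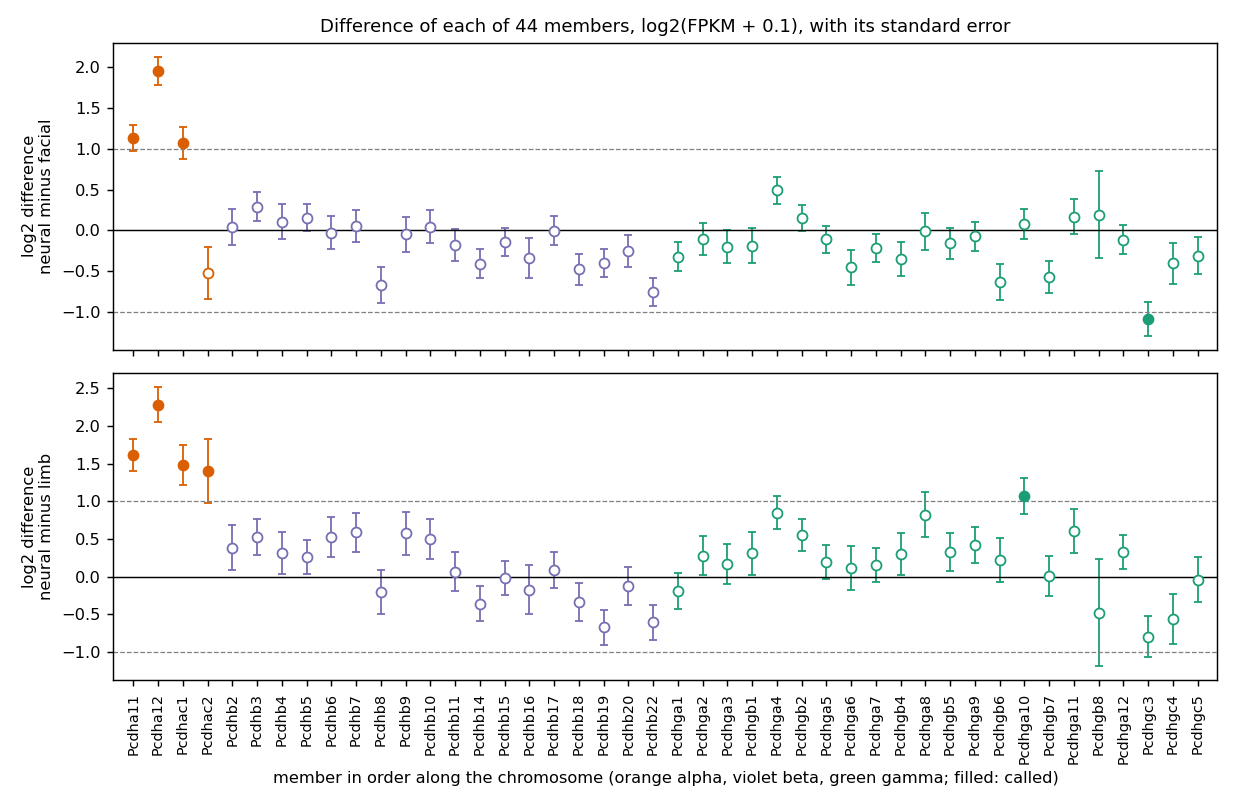
Log2 difference of each of 44 members with its standard error, neural minus facial above and neural minus limb below, on the log2(FPKM + 0.1) scale. Filled points are called, dashed lines mark a fold of 2, and colours mark the clusters. Pcdha11, Pcdha12 and Pcdhac1 lie above the upper line in both panels, and Pcdhgc3 lies lowest, at -1.09 and -0.80.

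Within neural tissue and within the face no member was called by either fit. The background was 1.39% of genes for dB against vB, 2.68% for FNP against MNP, 2.28% for FNP against MXP and 1.03% for MNP against MXP in the main fit, and 2.42%, 5.63%, 4.39% and 1.54% in the fit with 0.1 added. In the main fit 0 of 19 members had an unadjusted p under 0.05 in any of these 4 comparisons, against 7.21% to 16.7% of all genes. No member had libraries without overlap between the first and the second tissue, against 0.972% of genes higher and 0.376% lower for dB and vB, 6.04% and 1.8% for FNP and MNP, 5.28% and 1.22% for FNP and MXP, and 1.79% and 1.15% for MNP and MXP. Libraries of the same number deviated together within each category, so that the number was also fitted as a block. Some members passed the adjusted p under the fold. With the block Pcdhb17 was lower in dB than in vB by -0.29 (SE 0.10, adjusted p = 0.0422) in the main fit, 1 of 19 members against 3.69% of all genes, and with 0.1 added Pcdhb18 and Pcdhb7 passed beside it, 3 of 44 against 2.75%. Without the block 0 members passed between dB and vB. Pcdha11 and Pcdha12 were higher in FNP than in MNP already without the block, with 0.1 added (adjusted p = 0.0477 and 0.027), 2 of 44 against 6.63%. With it Pcdha11, Pcdha12 and Pcdhac1 were higher in FNP than in MNP by 0.75, 0.89 and 0.81, 3 of 44 against 9.86%, and Pcdha12 was higher in FNP than in MXP by 0.87, 1 of 44 against 9.51%. FNP replicates 4 and 5, with their brain markers, had sums of Pcdha1 to Pcdha12 inside the range of the other FNP libraries.

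Protocadherins outside the clusters, many of them of the delta group and each with its own locus, were listed for comparison. Of 11, 9 were tested in the main fit. Between neural and facial tissue 1 was called higher and 2 lower, against 6.64% and 4.64% of all genes, with a median difference of -0.17 against -0.02 over all genes. None was called between facial tissue and limb, between dB and vB or between MNP and MXP. Pcdh8, known as a regulator of cadherin adhesion, was called higher in the brain than in the face, by 2.63 (SE 0.15), with means of 7.47 FPKM in dB and 8.75 in vB and at most 1.01 elsewhere. Pcdh18 was lower by -1.71 (SE 0.12), with 18.6 FPKM in dB and 9.70 in vB against 41.8 to 51.6 in the face, and Pcdh7 was lower by -1.05 (SE 0.11). Against limb, Pcdh8 (2.13) and Pcdh19 (1.14) were called higher in neural tissue and Pcdh18 (-1.13) lower. Pcdh10 was called lower in FNP than in MNP and in MXP, with means of 5.40, 13.4 and 25.2 FPKM.

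Genes known to act on the cluster promoters were listed too. The list of cohesin, factors that act on it and CTCF held 12 symbols, with both Wapal and Wapl listed for the same gene. The 11 genes were all tested, and 0 were called in any of the 7 comparisons, in which 1.03% to 12.4% of all genes were called. Ctcf had means between 40.6 and 46.9 FPKM in the 6 tissues, and the largest neural minus facial differences in the list were -0.27 for Pds5b, -0.18 for Wapal and -0.15 for Stag1. Of 7 genes of DNA methylation and silencing 0 were called either. Dnmt3a, a de novo methyltransferase, was lower in neural than in facial tissue by the adjusted p alone (-0.73, SE 0.15), as was Dnmt3b (-0.48, SE 0.12), while Trim28 had -0.23 (adjusted p = 0.0624).

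Among 13 partners of the cytoplasmic tails and enzymes that cleave the proteins, 12 were tested. Cyfip2, a subunit of the WAVE complex that drives branched actin, was called higher in the brain than in the face (1.69, SE 0.16) and than in limb (1.28, SE 0.21), with 12.7 FPKM in dB and 14.5 in vB. It was also called higher in FNP than in MNP (1.11). Its paralog Cyfip1 was lower in neural tissue by the adjusted p alone (-0.59, SE 0.08). The kinase Fyn was called higher in neural tissue than in limb (1.13, SE 0.15) and was higher than in facial tissue under the fold (0.78). These lists were drawn up with earlier results of the data known and are described by their counts alone.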

How the data were processed

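RNA of 35 libraries from 6 tissues was sequenced by the authors as paired reads of 75 bases, and tissue from multiple embryos was pooled per library. The deposited tables hold FPKM per transcript as estimated by Cufflinks, 1 table per library, with a coverage signal per transcript that the authors deposited beside it and that served here only to describe depth. The submitters' processing notes name mm10, Bowtie2 and DESeq2, and which version of Cufflinks was run is not given in the sources used here. Each table lists 59120 transcripts, of which 65 could not be read because their gene name held a space, and 59055 were used. FPKM under 1e-06 was set to 0 and FPKM was summed per gene symbol. The planned count test did not apply, since the values are FPKM.

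limma 3.58.1 (R 4.3.3, trend and robust options) was fitted to log2(FPKM + 1) with 1 mean per tissue. Calls needed a Benjamini-Hochberg adjusted p under 0.05 over all genes and a fold of at least 2, as in the study. Folds on these scales are smaller than ratios of FPKM for low genes. P-values measure the spread between the libraries of a tissue. The steps were tested on simulated data. Python 3.11.15, pandas 2.3.3, SciPy 1.17.1 and matplotlib 3.10.9 were used for the rest.

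Replicate numbers pair libraries within a category: deviations from the tissue means correlated over 0.1 in 78 of 85 pairs of same-numbered libraries (r from 0.0078 to 0.698). Correlations with libraries of other tissues were also averaged by number, and for 32 of 35 libraries the mean was highest for their own number. Every pair passed within the brain and within the face, so a block was added for those comparisons.

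Alternatives were an added 0.1, no filter, the filter on the mean over all tissues, other scalings, a replicate block and left-out libraries. Others were replicates 1 to 3 or 4 to 6 alone, a term for replicates 1 to 3 against 4 to 6 and a test against a fold of 1.5. The single sequencing runs were not fitted. Named genes were the C-type members, the 5 highest of each cluster and the 3 called members with the largest change per direction; of other lists, the 3 with the largest neural minus facial change and any called where 5 or fewer were. Pcdha1, Pcdha4-g, Pcdha10, Pcdhb1, Pcdhb18, Pcdhga4 and Pcdhga10 were named after their values were seen. Members and lists were chosen with earlier results of these data known. Sequences of members are not reported here.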

Additional observations from a re-analysis of the deposited data

Results flagged for a closer look

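In 11 of 138 groups of libraries (7.97%) the highest or lowest value stood apart from the rest by Dixon's test, where chance flags about 1 in 20. Of the 11 values 4 belonged to libraries numbered 4 and 4 to libraries numbered 2.

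Pcdhgb8 stood apart in 3 tissues, with 14.2 FPKM in FNP replicate 4 (next value 2.52), 6.36 in dB replicate 6 (1.90) and 6.09 in vB replicate 4 (1.54). In all 3 the FPKM lay in the shorter of its transcripts, with 13.9, 6.2 and 5.99 FPKM. In vB replicate 4 the C-type members held 26.6% of the gamma FPKM, where the next lowest vB library had 45.0%. That share includes the Pcdhgb8 peak, and without Pcdhgb8 the values were 40.9% and 46.3%. The C-type share of the alpha FPKM was 0% in limb replicate 4, against 56.7% in the next limb library, and Pcdhac2 was listed at 0 there.

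Alpha members gave 4 more values. Pcdha12 was at 0.127 FPKM in MNP replicate 2 (next value 0.0407) and at 0.111 in MXP replicate 1 (0.0449). Pcdha9 was at 0.278 FPKM in dB replicate 2 (0.109), and Pcdhac1 was at 0.0726 FPKM in limb replicate 1 (0.0223). The beta sum was 12.9 FPKM in dB replicate 2, where the next was 7.07. Pcdhgc5 was lowest in MXP replicate 2, at 0.195 FPKM against 0.330.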

How the results depend on the processing

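Over 68 differences of named members 1076 alternatives were run. Of these 1045 stayed on the same side of the threshold, 18 came to pass it and 13 no longer did. None reversed a difference that was called in the reference fit or in the alternative. The sign of differences called in neither was not followed. That of Pcdhac2 between dB and vB changed, from -0.06 in the main fit to 0.002 with the filter on the mean over all tissues and 0.1 added. All 90 alternatives for cluster sums and 54 for C-type shares moved by less than 1 SD. Where libraries were left out this was largely fixed in advance, because the means share libraries and the SD is that of the same libraries. It therefore says little about how steady these values are. The counts of members called moved more. For neural against facial tissue the count of 1 became 4 with the filter on the mean over all tissues and 0.1 added, also with median of ratios scaling or a replicate block. It became 3 in that fit with replicates 1 to 3 alone, replicates 4 to 6 alone or the libraries numbered 4 left out, and 5 at any fold. It became 0 with a replicate block, with replicates 1 to 3 alone, with a test against a fold of 1.5 and without the libraries numbered 4, and it was 0 to 1 over single left-out libraries, with 0 without vB replicate 4. In these the difference of Pcdhgc3 was -0.99, -0.70, -1.05, -0.80 and -0.85. For neural against limb the count of 0 became 5 in that same fit, with median of ratios, with a block and without the libraries numbered 4, 9 with replicates 1 to 3 and 2 with replicates 4 to 6. It was 2 with 0.1 added alone and 6 at any fold. For facial tissue against limb the count of 0 became 1 in that fit, with median of ratios, with a block, with replicates 1 to 3, without the libraries numbered 4 and with 0.1 added alone, and 3 at any fold. Between any pair of tissues the count of 2 became 8, 8 with median of ratios, 7 with a block, 12 with replicates 1 to 3, 4 with replicates 4 to 6 and 6 without the libraries numbered 4. It was 5 with 0.1 added alone, 1 with either set of replicates in the main fit, and 0 with a test against a fold of 1.5 or without the libraries numbered 4. The cause of these moves was not tested. With no filter and 1 FPKM added, Pcdha11, Pcdha12 and Pcdhac1 passed the adjusted p and not the fold, at differences from neural to facial tissue of 0.23, 0.56 and 0.23. Between categories 56 of 63 pairs of same-numbered libraries had r over 0.1 (0.0078 to 0.698), and every pair did in 4 of 11 pairs of tissues, so that the numbers are not shown to pair all libraries there. The block left the fold of Pcdhgc3 just under 2, and it changed no call at the fold within the brain or the face. Depth limits the alpha members most, and the division of reads among members with shared exons cannot be checked from FPKM.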
